A study of Homo sapiens with 9 samples.

Results

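The experiment was the overexpression of RORA in 293T cells, a derivative of the human embryonic kidney line 293, measured as 1 RNA-seq library against 1 control library. The series held 9 libraries, 1 per condition, and the other 7 carried NRF1, E2F4, EGR1, ZBTB7A, HOXA11, TFCP2 or NKX2-8. Each TF was expressed from its own open reading frame in a lentiviral plasmid with an EF1A promoter and EGFP, and RNA was taken 48 h after transfection. The control cells, labelled blank, had the plasmid with no TF insert, as the methods give it. The study chose RORA, HOXA11, TFCP2 and NKX2-8 as TFs with no preference for conserved lncRNAs in binding data, against which NRF1, E2F4, EGR1 and ZBTB7A were compared. A gene was called RORA-specific when its level in CPM (read counts scaled to a common library size with TMM factors) in the RORA library lay outside the range of the 8 other libraries, which held for 2242 of 13993 measured genes. RORA itself was left out. With 1 library per condition there was no replicate check and no p-value for RORA against control, so the 7 other TF libraries served as the range of variation unrelated to RORA. Each was a transfection with a different TF, not a replicate.

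RORA is an orphan nuclear receptor that binds as a monomer to a core site preceded by an A/T-rich stretch, the ROR response element, and activates transcription. It competes at this element with the REV-ERB repressors NR1D1 and NR1D2, and through it the RORs and REV-ERBs set the rhythm of BMAL1 in the circadian clock. Outside the clock, RORA is known for the survival of cerebellar Purkinje cells, for hepatic lipid metabolism and for T helper 17 cells.

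Of the RORA library's 17016549 counts, 150861 fell on RORA (0.887%), against 273 of 18915400 in the control library. This was 9113 CPM against 14.8 CPM, a ratio of 614, and it includes reads from the inserted open reading frame. In the 7 other TF libraries RORA lay at a median of 15.2 CPM. The highest of these was the HOXA11 library with 1097 counts (65.2 CPM), 4.40-fold the control library, a difference whose origin was not tested. The antisense transcript RORA-AS1 had 1 count in the RORA library and 8 in the control library, and RORA-AS2 had none in any of the 9 libraries.

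The identity of the cells, a kidney-derived line, was set beside marker genes of several cell types. All 10 genes of a list for kidney and epithelial cells had counts in the RORA library, and 9 reached 0.5 CPM on average. VIM, CDH2 and KRT18 were the highest of the list. The summed level of the 10 was 1484 CPM in the RORA library, 1501 in control and 1224 to 1446 in the 7 others. The 10 neuronal markers known from 293 cells, led by NEFM, summed to 1008 CPM against 1166 in control and 837 to 1048 in the others. Markers of other cell types were low, with 34.9 CPM in the RORA library for 10 fibroblast markers (COL1A2, THY1 and FAP at 0), 3.62 CPM for 10 leukocyte markers (PTPRC, CD14, CD68, CD4, MS4A1 and NKG7 at 0) and 1.15 CPM for 10 hepatocyte markers (TTR, APOB, SERPINA1, FGB, FGA and CYP3A4 at 0). Library totals were 14177970 to 18915400 counts, and the intervals given below cover counting error only.

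Few genes differed by a large factor in the RORA library. Among 13993 genes of at least 1 CPM in the RORA or the control library, 72 were at least 2-fold higher in the RORA library (0.515%) and 55 at least 2-fold lower (0.393%), together 127 (0.908%). The same count was 94 to 1261 in the 7 other TF libraries, with a median of 396, and was above that of RORA in 6 of 7. These counts share 1 control library. The median of the absolute log2 fold change was 0.11 for RORA and 0.10 to 0.21 for the others.

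Most of these genes were weakly expressed, and only 3 of the 127 reached 5 CPM. ACTA2, smooth muscle actin, had 484 counts in the RORA library and 249 in control (29.2 against 13.5 CPM, ratio 2.16, 95% interval 1.85 to 2.53) and lay above the 7 other TF libraries, whose range was 14.9 to 24.0 CPM. GDF15, a stress-induced cytokine, had 102 against 54 counts (6.16 and 2.94 CPM, ratio 2.10, 1.49 to 2.98), within the 3.04 to 16.05 CPM of the other TF libraries. These 2 genes and TFCP2, the next in this account, were singled out after their values were seen.

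The control library was at an extreme of the 9 libraries for many of the changed genes. TFCP2, 1 of the 4 TFs of the comparison arm, had 9812 counts (533 CPM) in the control library and 653 to 703 counts (36.6 to 45.9 CPM) in the 7 libraries other than control and TFCP2. Its log2 fold change of -3.66 in the RORA library therefore came with a RORA value like that of the 6 TF libraries that carried neither insert. Of the 72 higher genes, the control library was the lowest of all 9 in 43, the RORA library was above all 8 others in 18, and 7 were in both sets. Of the 55 lower genes, the control library was the highest in 21, the RORA library was the lowest in 33, and 9 were in both sets. The 72 and the 55 genes were chosen by their distance from control, which by itself favours genes in which control is extreme. The share of all measured genes with control at an extreme was not counted. When the mean of the 7 other TFs replaced control as reference, 7 of 14175 genes were at least 2-fold higher and 202 lower. Of these, 6 and 15 were among the genes changed against control. That mean of CPM can be raised by 1 library alone, so a gene far under it need not lie below the range. How the TFCP2 reads came into the control library was not tested, and each ratio to control in this account rests on that library.

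**Figure D1:**
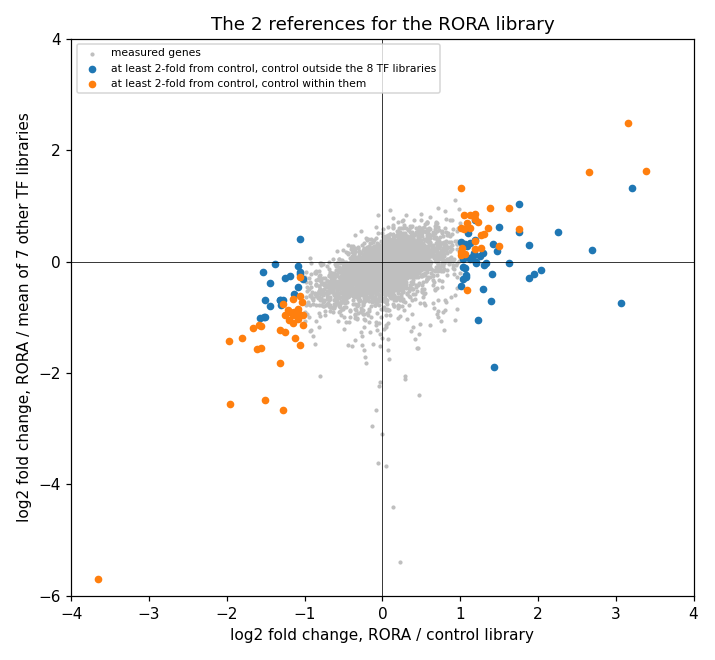
Each point is a gene measured at 1 CPM or more, by its log2 fold change in the RORA library against the control library (x axis) and over the mean of the 7 other TFs (y axis), which share the RORA library. Genes at least 2-fold from control are coloured by whether the control library lay outside the 8 TF libraries (blue) or within them (orange), and TFCP2 is the lowest point.

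TRIM67, a brain ubiquitin ligase family member, shows the pattern of a low control library. It had 30 counts in the RORA library and 2 in control, while the other TF libraries ranged from 7 in HOXA11 to 200 in NRF1. PPL, the desmosomal protein periplakin, had 40 against 5 counts, and the other TF libraries held 18 to 81. ISG20, an interferon-induced exonuclease, had 23 against 5 with 19 to 49 in the others, and INSYN2A had 21 against 4 with 6 to 36 in the others. None of the 4 left the range of the 8 other libraries. On the falling side, KLHL4 (9 against 31 counts, others 9 to 18), ZNF492 (6 against 20, others 6 to 18) and GOLGA8N (14 against 37, others 8 to 28, a gene with near-identical paralogs) were likewise within it, and in each the control library was the highest of the 9.

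By the rule, 1393 genes lay above the range of the 8 other libraries in the RORA library (9.95%) and 849 below it (6.07%). The share outside was 16.02%, and the same rule put 11.6% to 44.04% of genes outside for the 7 other TF libraries. The distance was small. The median gap to the nearest library was 1.03-fold for genes above and 1.05-fold for genes below, and 20 genes reached 1.5-fold (0.143%), 4 above and 16 below. The other TF libraries had 13 to 687 genes with such a gap. The split between above and below depended on scaling, because 62.1% of the genes outside were above with TMM factors, 59.0% with DESeq2 size factors and 34.5% with library totals.

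**Figure D2:**
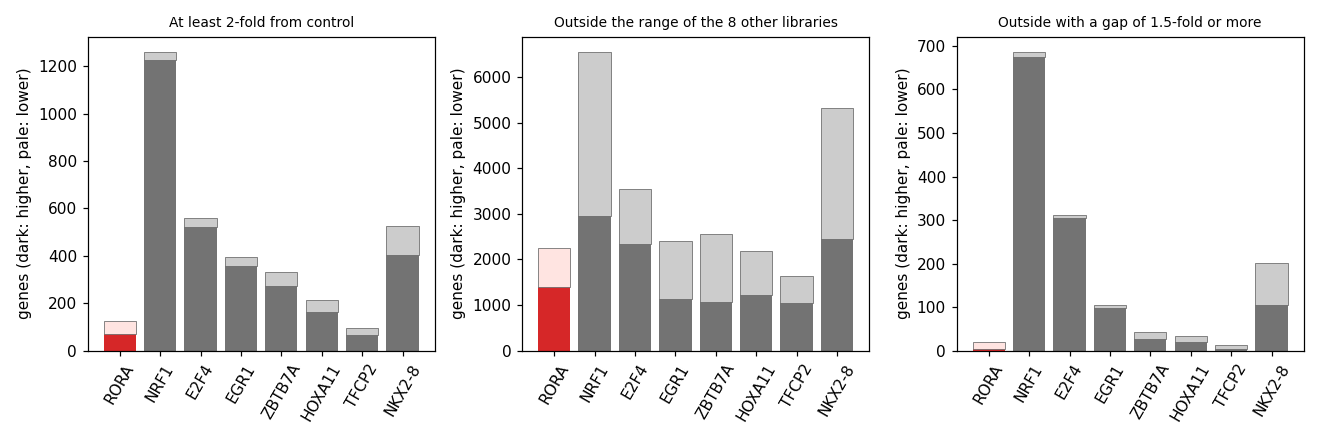
Number of genes in each TF library at 2-fold or more from control (left), outside the range of the 8 other libraries (middle) or outside it with a gap of at least 1.5-fold (right), with higher genes dark and lower genes pale. RORA, in red, had 127, 2242 and 20 genes, and only TFCP2 had fewer changed genes and fewer genes with a gap.

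The RORA library was also set against the 7 other TF libraries with edgeR's quasi-likelihood test, in which the lone RORA library is assumed to vary like the others. The test called 0 of 17143 genes at a Benjamini-Hochberg adjusted p of 0.05 (0%), and the smallest adjusted p was 0.9998 (DESeq2's Wald test also called 0, with a smallest adjusted p of 0.0563). At an unadjusted p under 0.05 stood 260 genes by edgeR (1.52%) and 242 by DESeq2. The spread in this test is that between transfections with 7 different TFs, with a common biological coefficient of variation of 0.164. That spread takes in any effects of those TFs, so the lack of calls does not show that no gene changed.

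The genes of the ROR and REV-ERB circuit are given first, and they were chosen with earlier results of these data known. NR1D1, the REV-ERB repressor that shares the ROR element, had 230 counts in the RORA library against 176 in control, 174 in HOXA11, 171 in TFCP2, 170 in E2F4, 156 in NRF1, 145 in NKX2-8, 136 in EGR1 and 125 in ZBTB7A. The level was 13.9 CPM in the RORA library, 9.57 in control and 8.49 to 10.3 in the 7 others (median 9.62). RORA was the highest of the 9 and did not overlap with the rest. Its ratio was 1.45 to control (95% interval 1.19 to 1.78) and 1.34 to the nearest library, HOXA11. It kept its place above the range with each scaling. Leaving out any of the 8 other libraries can only narrow the range, so that is no check of this place. NR1D1 lies at chr17:38249040-38256978 (GRCh37, minus strand) and shares 1081 bases with THRA on the opposite strand, and THRA was at 48.4 CPM in the RORA library and 48.5 in control. In edgeR's test NR1D1 was higher than the 7 other TF libraries by 0.55 on the log2 scale (SE 0.15), with an adjusted p of 0.9998.

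BMAL1, which with CLOCK drives the clock's E-box genes and is the best known target of the ROR element, had 217 counts in the RORA library and 150 in control. The other TF libraries held 110 in NRF1, 128 in EGR1, 139 in E2F4 and in TFCP2, 165 in ZBTB7A, 169 in NKX2-8 and 176 in HOXA11. In CPM this was 13.1 in RORA, 8.16 in control and 6.94 to 11.4 in the others (median 7.99). RORA was again the highest, at a ratio of 1.61 to control (1.30 to 1.99), but the ratio to the nearest library, ZBTB7A, was 1.15 with an interval of 0.935 to 1.42. BMAL1 lies at chr11:13298199-13408813 (GRCh37, plus strand). Neither NR1D1 nor BMAL1 reached the 2-fold threshold.

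The BMAL1 promoter window, 250 bases before to 50 after the RefSeq start, held the core site of the ROR element. Promoters were searched for TAGGTCA and TGGGTCA on both strands, and for the full element of 10 letters by its name. The sites are shown because they are the only ones among the 83 of 99 named genes whose RefSeq promoter window was looked at one by one. Capitals mark the core site as it reads on the gene's strand.

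BMAL1: aaggcagaaagTAGGTCAgggacggaggt

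LINC02321: ccTGACCCAtcgcgctcagg

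TCEAL3: ggatggtgaggTGGGTCAggcaagggggg

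In GRCh38.p14 these stretches are chr11:13277809-13277837 on the plus strand for BMAL1, chr14:90828405-90828424 on the minus strand for LINC02321 and chrX:103607831-103607859 on the plus strand for TCEAL3. The site begins 31 bases from the start of BMAL1, inside the transcribed region, 248 bases before that of LINC02321, where it lies on the opposite strand, and 121 bases before that of TCEAL3. Of the 3, only that of BMAL1 was part of a full ROR response element. The window of NR1D1 held none of these letters, which says nothing of sites elsewhere in the gene. LINC02321 (22 counts in the RORA library, 8 in control, 5 to 14 in the others) was above the range, and TCEAL3 (7 counts, 19 in control, 11 to 19 in the others) was below it. LINC02321 reached the minimum of 1 CPM through the RORA library and not through control, and TCEAL3 through control and not the RORA library.

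Over all promoters, genes with these letters lay outside the range about as often as the rest. Of 10930 measured genes with a promoter window, 433 held a core site (3.96%) and 40 a full element (0.366%). Among the 433 genes, 49 were above the range (11.3%) and 22 below (5.08%), beside 10.05% and 5.75% of all measured promoters. Of the genes with a gap of at least 1.5-fold, 11 below the range had a promoter window and 1 of them, TCEAL3, held a core site, while none of those above had a window. Among the 40 genes with a full element, 5 were above and 3 below. The 5 above were BMAL1, SERINC2, HIC2, STRN and SEC14L1, and the median log2 fold change of the 40 against control was -0.04. A share of 5 in 40 (12.5%) is near the 10.05% of all promoters and is no result about these genes.

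Gene lists were counted over genes of at least 0.5 CPM on average, of which 8.99% were above the range and 5.49% below among all 15468. A call still needed 1 CPM in the RORA or control library, and over genes of that level the shares were 9.95% and 6.07%. At a minimum of 5 CPM, 1217 of 11249 genes were above and 534 below, so 8.99% is a low background for well expressed lists. Of 26 such clock, REV-ERB and ROR genes, NR1D1 and BMAL1 among them, 8 were above (30.8%) and 2 below (7.69%). Their median log2 fold change against control was 0.08, with 20 of 26 above 0, beside 7719 of all 15468 genes. None of the 26 reached 2-fold. With library totals as scaling, 6 were above, as NR1D2 and RORB returned to the range.

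Among the receptors, NR1D2, the second REV-ERB, had 1254 counts in the RORA library and 1310 in control, 75.8 against 71.2 CPM, with 60.4 to 72.7 CPM in the other TF libraries. RORB, the neuronal ROR, had 139 against 119 counts, 8.40 against 6.47 CPM, with 5.23 to 8.02 CPM in the others. Each exceeded its nearest library by only 1.04-fold and 1.05-fold, within counting error.

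Among the clock's repressors, PER1 stood at 91.0 CPM in the RORA library, 81.2 in control and 69.0 to 87.3 in the others. BHLHE40, a repressor of CLOCK and BMAL1, was at 286 CPM against 270 in control and 213 to 272 in the others. CRY1 was the lowest of the 9 at 35.3 CPM, against 40.3 in control and 36.3 to 43.6 in the others. PER3 had a ratio to control of 1.51 (1.05 to 2.17), but its 4.59 CPM lay within the 3.65 to 5.18 CPM of the other TF libraries and control was the lowest of all. PER2, CRY2, NFIL3 and BHLHE41 lay within the range. CIART was the lowest of the 9 at 10 counts but did not reach 1 CPM.

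Of the clock's regulators, NOCT, a clock-controlled phosphatase, was at 18.1 CPM against 15.1 in control and 12.7 to 16.8 in the others. TIMELESS was above the range by 1.02-fold. CSNK1D, CSNK1E, BTRC and FBXW11 lay within it. The PAR bZIP output factors DBP, TEF and HLF, whose genes are E-box targets, were within the range as well, at log2 fold changes of 0.15, 0.10 and 0.07. CLOCK, NPAS2 and BMAL2 were within the range at 0.06, 0.09 and -0.17.

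**Figure D3:**
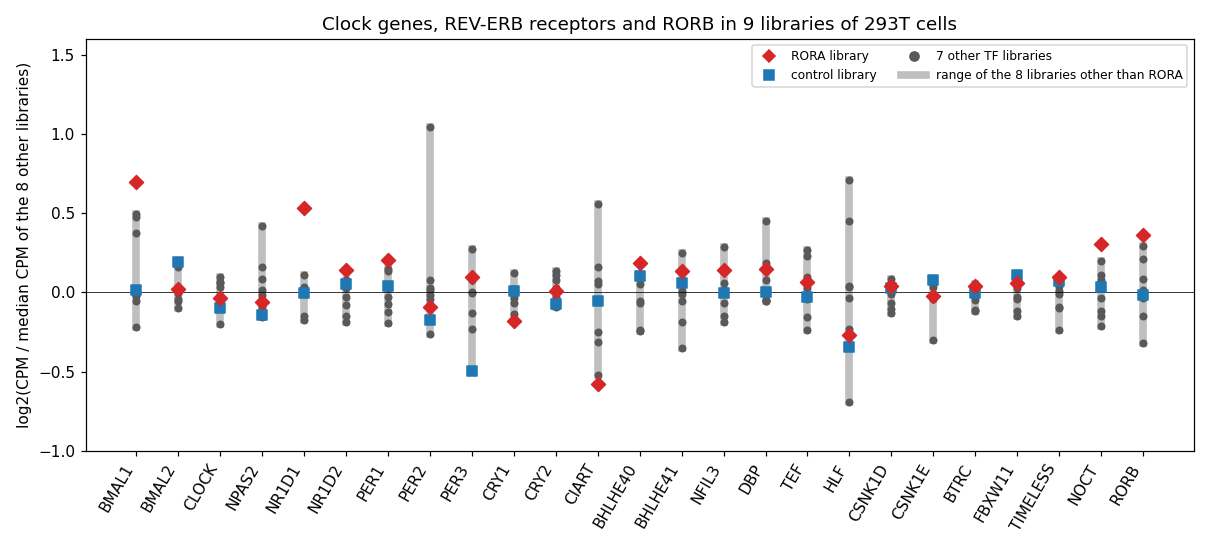
Each of 25 clock and receptor genes in the 9 libraries, as the log2 of its CPM over the median of the 8 libraries other than RORA (grey bars are the range of these 8, circles the 7 other TF libraries, squares the control and diamonds the RORA library). NR1D1 and BMAL1 are the 2 diamonds farthest above their bars.

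The coactivators and corepressors that RORs use were measured in full. Of 16, 5 were above the range (8.99% of all genes were) and none below, and none changed 2-fold. With library totals 3 were above. MED1, a subunit of the Mediator complex (78.0 against 67.2 CPM), NCOA6 (56.0 against 48.1) and NCOA3 (20.5 against 17.4) exceeded their nearest library by 1.06-fold to 1.07-fold, and KAT5 by less. HR, a corepressor that binds RORA, had 13 counts against 8 in control and 12 to 29 in the others.

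Targets of RORA known from other tissues gave few calls. Of 15 measured genes of hepatic and lipid metabolism, 2 were above the range, the lipogenic enzymes SCD (1484 CPM in the RORA library, 1478 in control) and FASN (945 against 849), both by at most 1.01-fold over the nearest library. Another 23 of the 38 genes, among them APOA1, APOA5, APOC3, CYP7B1, CYP8B1 and G6PC1, were below a mean of 0.5 CPM and so not measured here. Of 10 measured Purkinje cell genes only ATP2B4, a plasma membrane calcium pump, was above the range, at 56.1 CPM against 49.7 in control and a highest other value of 55.9. CACNA1G was at 11.1 against 7.39 CPM, within the 5.26 to 26.5 CPM of the others. In the T helper 17 list, IL17A, IL17F, IL23R, CCR6, IL22 and CCL20 were not measured, and none of the 3 that were left the range. Of these, IL1R1, an interleukin receptor (11 counts against 19, others 10 to 43), was below it with library totals and with DESeq2 size factors.

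Among 12 measured genes of inflammation and hypoxia, CDKN1A was above and SOCS3 below the range. CDKN1A, the cell cycle inhibitor p21, had 1422 counts in the RORA library and 1034 in control, 85.9 against 56.2 CPM (ratio 1.53, 1.41 to 1.66), and the others held 54.9 to 76.2 CPM (median 68.5). The RORA library was the highest of the 9, by 1.13-fold. SOCS3, a feedback inhibitor of cytokine signalling, had 31 counts against 37 in control and 36 to 91 in the others.

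The p53 targets as a list, which includes CDKN1A, had a median log2 fold change of 0.24 against control. Over all 15468 genes of at least 0.5 CPM on average it was -0.00. In the list 16 of 16 members were above 0, beside 7719 of the 15468 genes. Only 3 of the 16 were above the range, CDKN1A, GADD45A and XPC, and the median against the mean of the 7 other TFs was 0.10. TP53I3 had the largest ratio, 106 counts against 65 (1.81, 1.32 to 2.51), and lay within the range.

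The glycolysis and hypoxia response list held 12 of 28 measured members above the range (42.9%, beside 8.99% of all genes) and none below (5.49% of all genes), by 1.01-fold to 1.06-fold. Their median log2 fold change was 0.03 against control and 0.15 against the mean of the 7 other TFs. PKM, the pyruvate kinase, was at 2444 CPM in the RORA library, 2306 in control and 1926 to 2270 in the others. GAPDH was at 5862 CPM, 5577 in control and 4506 to 5470 in the others. With library totals 9 of the 28 were above.

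No member of the other programmes had a gap of 1.5-fold. The share of members outside the range went from 5.56% (unfolded protein response) to 30% (E2F and replication genes), beside 14.5% of all genes. The counts of each list stand beside 8.99% above and 5.49% below over all genes. Of 20 immediate early genes 4 were below and none above. These were EGR2, EGR3, ARC and DUSP6, and EGR3, an activity-induced zinc finger TF, was the farthest at 25 counts against 36 in control and 39 to 63 in the others. FOSL1, a component of AP-1, was the only list member changed 2-fold, at 44 against 18 counts (ratio 2.72, 1.54 to 4.99), with the control library the lowest of the 9 and the others at 30 to 68. The E2F and replication genes had 5 of 20 above and 1 below, CCNE1 being the one below. Mitosis genes had 3 of 20 above. The cholesterol biosynthesis list had 2 of 22 above, the unfolded protein response 1 of 18, the NF-kB response 1 of 7, the gluconeogenesis and fasting list 1 of 5 and the other nuclear receptors 3 of 33 with 1 below. Heat shock proteins had 1 of 12 above and 2 below, the adipose and lipid droplet list 1 of 17 above and 1 below, and the interferon response 1 of 11 below, IFI27, at 15 counts against 22 and 19 to 36 in the others. Library totals left 2 above and 2 below in the E2F list, 1 and 1 in the mitosis list, 0 and 4 among heat shock proteins, 0 and 1 in the cholesterol list and 1 and 1 among the other nuclear receptors. With totals 1 gene was above in the hepatic and lipid list and none in the Purkinje, unfolded protein response and gluconeogenesis lists.

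Protein-coding genes ranked by their gap to the nearest library were for the most part weakly expressed. A gene under 1 CPM in control was measured only through the RORA library, where it was high, as were NHLH2, CYP4F2 and ENG. A gene under 1 CPM in the RORA library was measured only through control. NHLH2, a neuronal bHLH TF, had 50 counts in the RORA library and 4 in control. The other TF libraries held 14 in EGR1 and HOXA11, 15 in NRF1, 16 in E2F4 and ZBTB7A, 22 in TFCP2 and 30 in NKX2-8. RORA was the highest and control the lowest of the 9. The ratio was 13.9 to control (5.099 to 52.96), and the gap to NKX2-8 was 1.49-fold.

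CYP4F2, a fatty acid omega-hydroxylase, had 19 counts in the RORA library, none in control and 0 to 11 in the others, which makes it at least 7.04-fold higher than control against a floor of 3 counts. ENG, the TGF-beta co-receptor endoglin, had 27 counts against 12 and 10 to 18 in the others. NMNAT3, a mitochondrial NAD synthesis enzyme, had 66 counts against 41 and 33 to 47 in the others. C11orf71 (179 counts against 156, others 83 to 136) exceeded its nearest library, control, by 1.27-fold. GOLGA8T, GATSL2, CSNK2A3, SDCBP2 and CCDC89 were also named above the range, at 27 to 48 counts each, and GOLGA8T, GATSL2 and CSNK2A3 have near-identical copies in the genome.

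On the other side, TNFAIP2, an NF-kB-responsive gene, had 15 counts in the RORA library and 37 in control. The others held 28 in NKX2-8, 30 in TFCP2, 32 in ZBTB7A, 33 in HOXA11, 51 in EGR1, 53 in NRF1 and 91 in E2F4. It was 0.906 CPM against at least 1.72 CPM elsewhere, a gap of 1.79-fold, and its ratio to control was 0.4505 (0.230 to 0.841). ZNF587B, a KRAB zinc finger gene, had 35 counts against 78 in control and 58 to 77 in the others. Its 8 other libraries lay close together at 3.66 to 4.49 CPM, and the RORA library was at 2.11 CPM, a gap of 1.69-fold.

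GSG1L, an AMPA receptor auxiliary subunit, had 7 counts against 22 and 13 to 135, FAM72C 10 against 23 and 17 to 33, LRRC39 8 against 20 and 14 to 25, FGD3 9 against 20 and 16 to 39, and CAPS2 30 against 54 and 39 to 63. FAM72C belongs to a family of near-identical copies. CRHR1, a corticotropin-releasing hormone receptor singled out after its values were seen, also had a gap of 1.5-fold or more, at 5 counts against 20 and 8 to 18.

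**Figure D4:**
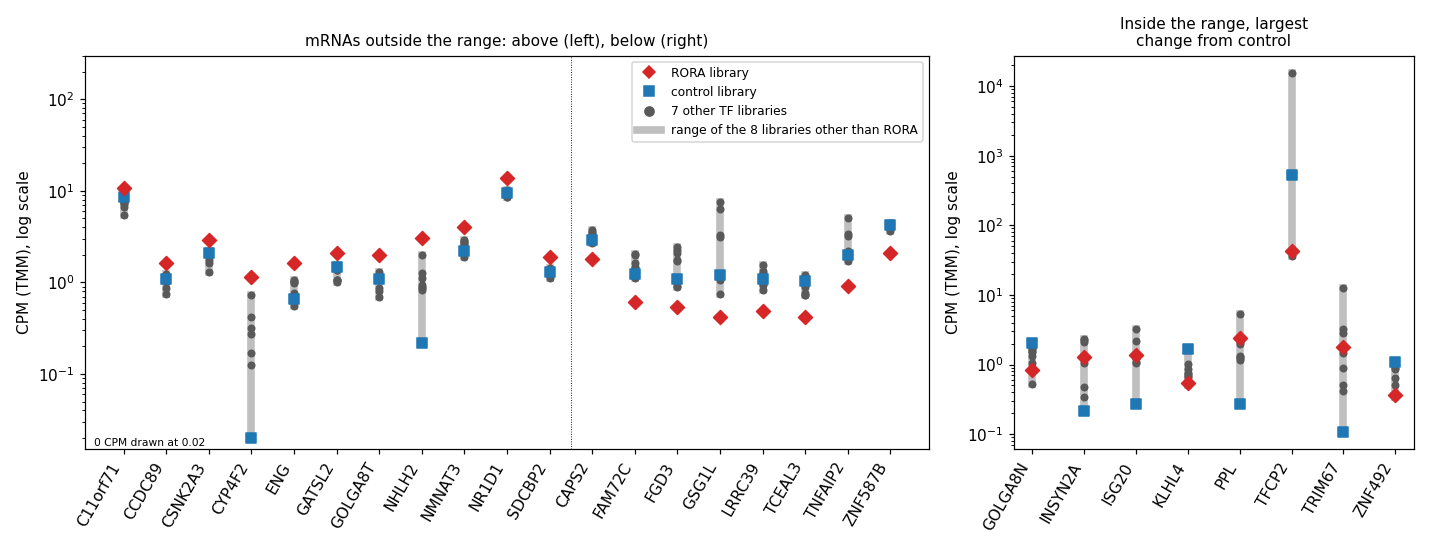
CPM on a log scale in the 9 libraries for 19 protein-coding genes named by their gap (left panel, 11 above and 8 below the range) and for the 8 with the largest change from control within the range (right panel), with the RORA library as diamonds, control as squares and the 7 other TF libraries as circles. In the left panel each diamond is off the grey bar that spans the 8 others, and in the right panel the square of the control library lies beyond the 8 TF libraries except in TFCP2.

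Genes of the basement membrane, the sheet of laminin and collagen under epithelia, were listed after their values were seen. Their share above the range is thus that of a selected set. Of 29 measured, 14 were above the range (48.3%, beside 8.99% of all genes and 15.8% of the longest mRNAs), 15 were inside it and none was below, with gaps of at most 1.16-fold, and none changed 2-fold. NID1, the basement membrane linker nidogen, was at 344 CPM in the RORA library, 299 in control and 253 to 285 in the others. The laminin chains above were LAMA1 (46.7 against 38.3 CPM in control, others 32.7 to 41.6), LAMB1, LAMB2 and LAMC1 (293 against 264.5 CPM, others 210 to 254). LAMB1 exceeded control, its nearest library, by only 1.003-fold (127.4 against 127 CPM). The fibronectin gene FN1 was at 112 against 98.8 CPM, with 80.6 to 93.5 CPM in the others. COL4A2, COL4A5, COL4A6, COL18A1, HSPG2, PXDN, SPARC and LOXL2 were above as well. The heparan sulfate synthesis list, chosen in the same way, had 5 of 24 above (20.8%) and none below, among them the polymerase subunits EXT1 (1153 against 1066 counts, others 782 to 1004) and EXT2 (1826 against 1748, others 1317 to 1627). With library totals 10 of the 29 basement membrane genes and 3 of the 24 heparan sulfate genes were above, and with DESeq2 size factors 14 and 4.

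Long mRNAs lay above the range more often than short ones. Among 12537 measured mRNAs, the share above rose from 6.46% in the shortest of 5 equal classes of summed exon length (up to 3029 bases) to 8.74%, 9.09%, 11.02% and 15.8% in the longest (8424 bases or more), and the share below fell from 6.97% to 3.87%. Exons summed to a median of 6340 bases in mRNAs above, 4620 in those below and 5138 in those inside. It was 8525 bases for the basement membrane genes. In the longest class the median deviation from the mean of the 9 libraries was 0.04 on the log2 scale in the RORA library, the highest of the 9, and -0.08 in the NKX2-8 library, the lowest. The part of length in the counts above and below was not tested.

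**Figure D5:**
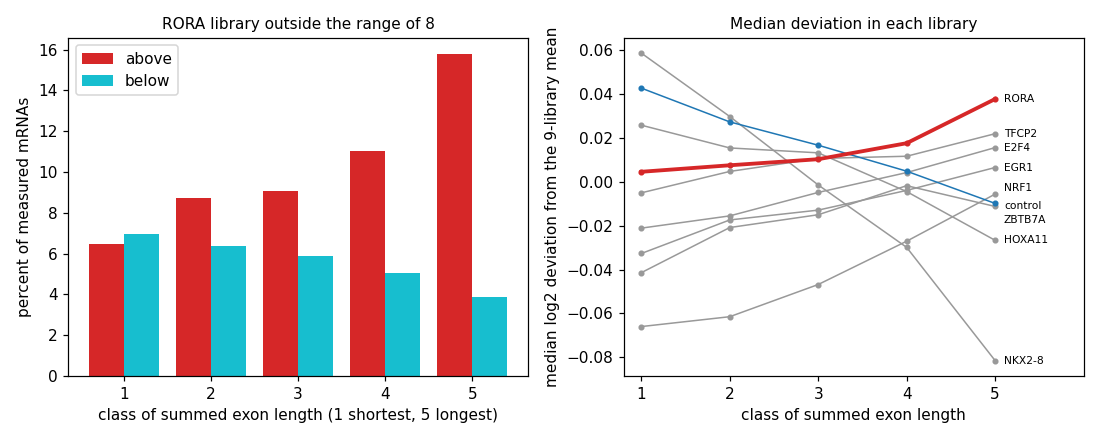
Left, the percentage of measured mRNAs above (red) and below (cyan) the range of the 8 other libraries in the RORA library, by class of summed exon length (1 shortest, 5 longest). Right, the median log2 deviation of mRNAs from their 9-library mean in each library by the same classes, with RORA in red and control in blue.

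The study used RORA as a negative control and reported no greater change of conserved than of non-conserved lncRNAs with it. Its expression change was adjusted for gene abundance by linear regression, and the shares and medians given here were not. Of 224 measured conserved lncRNAs, 2 were at least 2-fold higher and 6 lower in the RORA library (3.57%), and of 1150 non-conserved lncRNAs 23 were higher and 26 lower (4.26%). Outside the range lay 16.96% of the conserved (16 above, 22 below) and 17.7% of the non-conserved (89 above, 114 below). The median absolute log2 fold change was 0.21 and 0.27, and their median counts in the RORA library were 41.5 and 33. Over the 7 other TF libraries the share of all measured lncRNAs outside was 18.1% to 44.2%, against 17.5% for RORA.

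The 8 changed conserved lncRNAs were of few counts. LETR1 had 10 counts in the RORA library against 38 in control and 13 to 39 in the others. SATB1-AS1, transcribed opposite the chromatin organizer gene SATB1, had 6 against 20 and 12 to 44, and was the only conserved lncRNA with a gap of at least 1.5-fold (1.73-fold, below). SATB1-AS1 overlaps SATB1 in the annotation, and its counts are uncertain, as the use of strand in counting was not stated. PELP1-DT, which starts next to the coregulator gene PELP1, had 20 against 9 and 7 to 14, above the range. It was measured only through the RORA library, as control was under 1 CPM. GALNT7-DT had 23 against 10 and was within the 7 to 25 of the others. TRHDE-AS1 had 23 against 54 and 21 to 93.

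Among the other lncRNAs, CATG00000066157.1 had the widest gap of any gene. It had 24 counts in the RORA library, 1 in control and 0 to 6 in the others (0 in EGR1, 1 in E2F4 and TFCP2, 2 in NRF1, 3 in HOXA11, 4 in NKX2-8 and 6 in ZBTB7A). It reached 1 CPM only in the RORA library (1.45 CPM, against at most 0.415 elsewhere), so it was measured only through the library in which it was high. It lies at chr3:133783353-133788696 (GRCh37) on the minus strand and overlaps RYK, a receptor-like kinase gene on the same strand with 755 counts in the RORA library and 885 in control. It was named after its values were seen because it has no symbol.

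SEPSECS-AS1, antisense to the selenocysteine synthase gene by name and overlapping PI4K2B on the same strand, had 22 counts against 11 and 2 to 11 in the others. C1orf21-DT had 19 against 12 and 6 to 11, and LINC02983 and USP34-DT were above by 1.42-fold and 1.34-fold. With library totals LINC02983 was inside the range. SEPSECS-AS1 and C1orf21-DT reached 1 CPM in the RORA library alone, so they too were measured only through it. Below the range, VASH1-AS1 had 57 counts against 106 in control and 81 to 109 in the others, a gap of 1.51-fold. LINC01976 (31 against 59, others 48 to 67) and MRPL20-DT (26 against 46, others 40 to 68) were below by 1.56-fold and 1.55-fold. VASH1-AS1 overlaps VASH1 on the opposite strand and ANGEL1 on its own.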

How the data were processed

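RNA-seq of 9 libraries of 293T cells was taken as the deposited raw counts of the authors, 57163 genes with no normalization. Per the labels and the study's methods, reads were checked with FastQC 0.11.2, mapped to GRCh37 with STAR 2.6.0c and counted with featureCounts 1.6.3, keeping uniquely mapped reads. Whether the counting used strand was not stated there, and values of genes that overlap on opposite strands are therefore uncertain. Symbols came from GENCODE v44lift37 and the conserved set from the study's supplement (1731 lncRNAs).

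CPM used TMM factors from edgeR 4.0.16 in R 4.3.3. Fold changes had a prior count of 2, a changed gene differed at least 2-fold at 1 CPM or more in the RORA or control library, and lists took genes of at least 0.5 CPM on average. Ratios have exact conditional binomial 95% intervals, which cover counting error only. The quasi-likelihood test of edgeR was used with Benjamini-Hochberg adjustment over all genes, and DESeq2 1.42.0 was an alternative. RefSeq promoters (GRCh38.p14, 300 bases) matched 19145 genes.

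Named genes were, by gap to the nearest library with a prior count of 5, the 12 protein-coding genes and 6 lncRNAs above and the 8 and 4 below with a symbol, the 4 largest rises and 4 largest falls within the range, all measured clock, ROR and REV-ERB genes, and the extremes of each other list. The members and lists were chosen with earlier results of these data known, and the basement membrane and heparan sulfate lists and the length analysis after seeing the data. FBXL21 was the 1 list name not matched. Alternatives were other scalings, minima, prior counts and references, and leaving out each other library. Single libraries allow no statement on replicate error. Values of some genes that the naming rule selects are not reported here, and the counts include these genes.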

Additional observations from a re-analysis of the deposited data

How the results depend on the processing

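The 2-fold count of 127 genes was 122 with library totals, 130 with DESeq2 size factors and 164 with a prior count of 0.5. It was 390 with a minimum of 0.5 CPM, 3 with 5 CPM, 1641 with no minimum, 76 with a prior count of 5 and 209 with the mean of the 7 other TFs as reference. The 2242 genes outside the range stayed within 1751 to 2552 under scalings and minima of 0.5 and 5 CPM, and became 4341 with no minimum. The prior count does not enter this call. The 20 genes with a gap of at least 1.5-fold became 62 at 0.5 CPM, 2 at 5 CPM, 327 with no minimum and 11 with a prior count of 5. With each of the 8 other libraries left out, these counts ranged from 2479 to 2971 and from 20 to 34, both highest without the NKX2-8 library. Leaving out a library can only narrow the range, so the counts with a library left out cannot fall. Other minima change which genes are admitted, and for the rest the cause was not tested.

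Against the 7 other TF libraries, edgeR called 0 genes with every alternative, with 214 to 639 genes at an unadjusted p under 0.05, and DESeq2 called 0. Of the genes above the range, 0.455% had the full element in place of 4.46% with a core site. Of 99 named genes, the log2 fold change stayed within the counting interval for all 99 with both other scalings and a prior count of 0.5 and for 98 with a prior count of 5. With that mean as reference it did for 70, moved for 25 and reversed for FOSL1 (-0.015), INSYN2A (-0.14), ISG20 (-0.21) and TRIM67 (-0.75). Library totals kept 793 of 1393 genes above and 847 of 849 below. No paired analysis was possible because each condition had 1 library. Depth limits what can be said of genes of few counts.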
